A study of Mus musculus with 6 samples.

Results

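The genes described here encode the nuclear subunits of mitochondrial oxidative phosphorylation. They were chosen by symbol alone: Ndufa, Ndufb, Ndufc, Ndufs and Ndufv genes with a number, Sdha to Sdhd, genes starting with Uqcr, Cox4 to Cox8 genes, and genes starting with Atp5. The rule found 84 of the 20660 genes that the array probes could be named for, read by 113 probes. Complex I contributed 35 genes, complex II 4, complex III 8, complex IV 20 and complex V 17. Of these, 81 were well above background, the scanner software's own call for a signal clearly over the local background, on at least 3 of the 6 arrays, and these 81 were tested among 13014 genes. The subunits encoded by mitochondrial DNA were not analysed here.

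Oxidative phosphorylation makes ATP in the inner mitochondrial membrane. Complexes I and II pass electrons from NADH and succinate to ubiquinone, complex III passes them to cytochrome c, and complex IV passes them to oxygen. The proton gradient built by complexes I, III and IV drives complex V, the ATP synthase. Several complex IV subunits exist in a ubiquitous form and in a form made by a second gene in particular tissues. Hematopoietic stem cells of adult bone marrow are known to rely less on mitochondrial respiration than the progenitors that follow them. The cells described here came from fetal liver, and their respiration was not measured.

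The study compared progenitors of Satb1-null and wild-type mouse embryos of C57BL6/J background, taken from fetal liver at E18.5. Satb1 is a nuclear matrix protein that organises chromatin and is known for its part in lymphoid development. Each genotype gave 3 sorted populations. HSC-enriched cells were Lin- c-kitHi Sca-1+ and lacked Flt3, LMPP-enriched cells (lymphoid-primed multipotent progenitors) had the same c-kit and Sca-1 gates but carried Flt3, and CLP-enriched cells (common lymphoid progenitors) were Lin- with low c-kit and Sca-1 and with IL7Rα. Each of the 6 groups was 1 Agilent array, hybridised with Cy3-labelled cDNA amplified from 6.1 ng of total RNA. The labels do not give whether embryos were pooled, and with 1 array a group no comparison of 2 arrays could be tested. Levels below are log2 signals relative to the 75th percentile of their own array, so that 0 is that percentile. A probe's brightness does not order genes by abundance. In bulk samples, fewer cells of a type and less RNA per cell cannot be told apart.

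Across the arrays, 52.4% to 57.7% of spots were well above background and no spot was saturated. The sort markers moved with the populations: Flt3 was at 1.18 and 1.35 on the HSC arrays, 3.21 and 3.32 on the LMPP arrays and 0.85 and 1.78 on the CLP arrays, wild type first. Xist was at 4.18 to 4.74 on the Satb1-null arrays and not well above background on the wild-type arrays. The Y-linked genes were lower on the Satb1-null arrays but not absent. Eif2s3y was at 0.38 to 0.98 in wild type and -2.05 to -0.25 in Satb1-null, well above background on every array, as was Ddx3y. Kdm5d and Uty were well above background on all wild-type arrays and, in Satb1-null, only in HSC. The source of this Y-linked signal was not tested. The wild-type arrays also lay in slide row 1 and the Satb1-null arrays in row 2, so genotype, sex-linked signal and slide row cannot be told apart. The HSC arrays lay in slide column 1, the LMPP arrays in column 2 and the CLP arrays in column 3. Population and slide column therefore cannot be told apart in any comparison of populations. The Satb1 probe read -0.03 and -0.59 in HSC, 2.0 and 1.96 in LMPP and 0.71 and 0.65 in CLP, wild type first, so it does not check the genotype labels. Whether this probe lies in the deleted part of the gene was not tested.

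Many promoters of these genes are known to carry binding motifs for NRF1 and for GABPA, an ETS factor also called NRF2. Promoter sequences from RefSeq (GRCm38.p6) matched 68 of the 84 genes, with 73 start sites, and the 250 bases before each start were searched on both strands. The NRF1 motif, searched as GCGCANGCG, was in 15 of the 73 member promoters (20.5%) and in 5.16% of all 32851 promoters. The ETS core CCGGAAG was in 12 (16.4%) against 6.91% of all promoters, and the box CCAAT in 31 (42.5%) against 33.9%. The GC box GGGCGG was in 34.2% against 32.7%, the TATAAA box in 10.96% against 12.37%, and the YY1 core AAGATGGC in 1.37% against 1.56%. None of these motifs contains another.

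The sequences shown are the 100 bases before the start, on the strand of the gene, with NRF1, ETS core and CCAAT matches in capitals. An NRF1 match lay within these 100 bases in 11 member promoters, and Ndufa11 (chr17:56717662-56717761, plus strand), Ndufb4 (chr16:37654369-37654468, minus strand) and Atp5g2 (chr15:102671048-102671147, minus strand) are the 3 of these whose genes had the largest LMPP minus HSC difference. Cox6a1 (chr5:115348959-115349058, minus strand) and Cox7a1 (chr7:30184071-30184170, plus strand) are shown as the ubiquitous form of subunit 6a and the tissue form of subunit 7a of complex IV.
Ndufa11: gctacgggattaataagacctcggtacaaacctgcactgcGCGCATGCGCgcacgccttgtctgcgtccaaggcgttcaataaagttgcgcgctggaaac
Ndufb4: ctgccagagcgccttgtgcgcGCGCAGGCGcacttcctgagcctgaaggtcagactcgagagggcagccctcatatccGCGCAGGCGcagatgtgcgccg
Atp5g2: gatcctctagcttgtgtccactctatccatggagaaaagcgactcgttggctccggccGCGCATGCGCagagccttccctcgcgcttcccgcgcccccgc
Cox6a1: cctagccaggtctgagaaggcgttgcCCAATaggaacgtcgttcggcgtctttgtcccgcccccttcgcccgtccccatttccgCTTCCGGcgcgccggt
Cox7a1: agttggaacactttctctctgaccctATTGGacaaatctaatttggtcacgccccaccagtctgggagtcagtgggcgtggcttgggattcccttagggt
In Ndufa11 and Atp5g2 the NRF1 matches on the 2 strands overlapped. Ndufb4 held NRF1 matches at 2 places, and Cox6a1 held a CCAAT box and an ETS core, both within the window shown. A match describes the letters and is not evidence of binding.

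The subunit genes were bright on every array. Over the 81 genes the median wild-type level was 3.87 for HSC, 4.38 for LMPP and 4.19 for CLP, and the Satb1-null medians were 3.96, 4.30 and 4.04. The median of all 13014 tested genes lay between 0.29 and 0.53 on the same arrays. Each gene is given by its brightest probe, and genes were ranked within a complex by that probe. In complex I the brightest was Ndufb7, an accessory subunit, at 5.72 to 6.51, and the dimmest Ndufs8, a core iron-sulfur subunit, at 0.17 to 1.31. In complex II, Sdhc, a membrane anchor, lay at 4.30 to 5.15 and Sdhb, the iron-sulfur subunit, at 1.39 to 2.35. In complex III, Uqcrb lay at 5.94 to 6.44 and the core protein Uqcrc1 at 3.81 to 4.16. In complex IV the brightest was Cox7a2l, grouped here with subunit 7a, at 6.38 to 7.32. In complex V, Atp5a1, the alpha subunit of the catalytic head, lay at 6.89 to 7.40 and Atp5o, a peripheral stalk subunit, at 1.03 to 1.88.

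**Figure D1:**
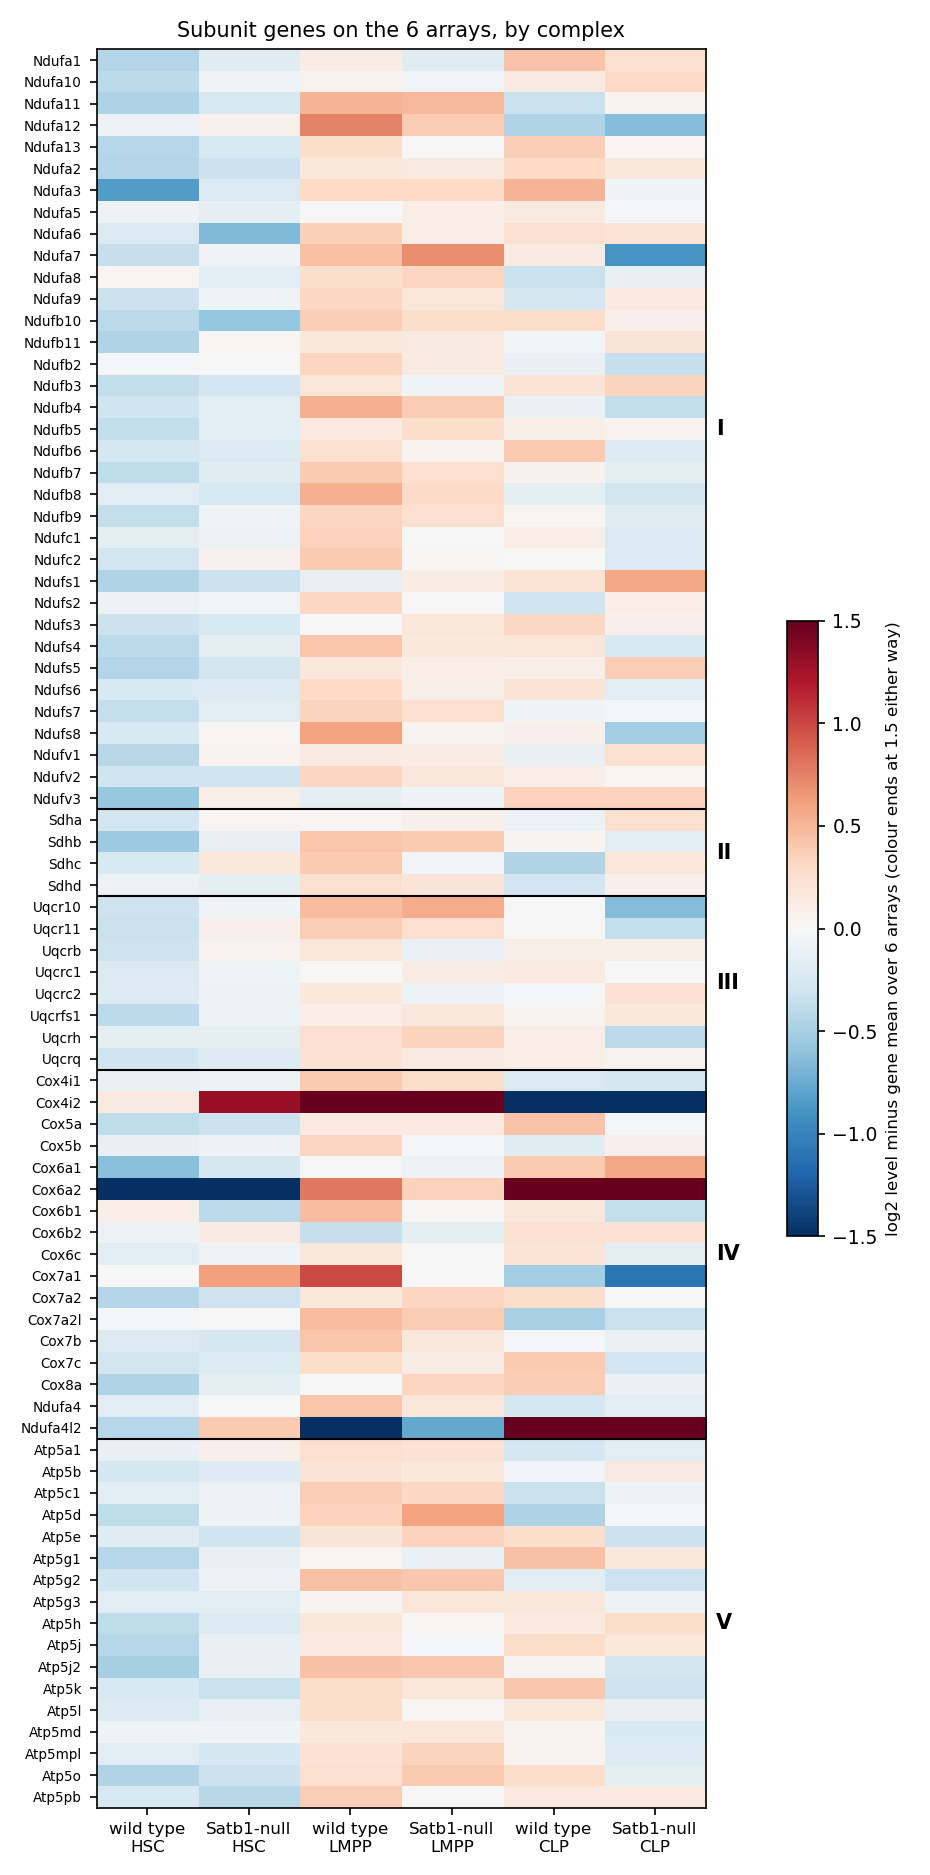
Levels of the 81 tested subunit genes (rows, grouped by complex I to V) on the 6 arrays (columns), each as the log2 level minus the gene's mean over the arrays, with the colour scale ending at 1.5 either way. The HSC arrays are the lowest pair in 35 rows and the LMPP arrays the highest pair in 32, and the strongest colours belong to the complex IV isoforms Cox4i2, Cox6a2 and Ndufa4l2.

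The first comparison asked how the subunit genes differ between LMPP and HSC. Both LMPP arrays were above both HSC arrays for 71 of 81 subunit genes, and 31.3% of all tested genes showed that order. The median difference was 0.43 on the log2 scale against 0.12 for all genes, and 79 of the 81 differences were above 0. No single gene passed the test: limma called 0 of 13014 genes at a Benjamini-Hochberg adjusted p of 0.05, against 1106 genes (8.50%) and 7 members at an unadjusted p under 0.05. Subunit genes are brighter than most, so the count was set beside genes with a mean level of at least 2, where 63 of 71 members and 46.3% of genes had both LMPP arrays above both HSC arrays. Among these brighter genes the median difference was 0.41 for the members and 0.20 for all genes, a smaller gap than without the cut. Member medians on the arrays, at 3.87 to 4.38, lay well above the cut, so it matches brightness only in part.

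The size of this difference moved with how the arrays were centred. The median over the members was 0.61 with each array centred on its median, 0.28 with the percentile taken over probes detected on all arrays, 0.21 after quantile normalization and 0.26 from the authors' processed values. Set against the median of all genes, it was 0.31 higher in each of these except quantile normalization, where it was 0.15 higher. Apart from quantile normalization, these scalings shift a whole array by a constant. That constant cancels against the median of all genes, so the equal values of 0.31 follow from the arithmetic and are no support. With normexp, a background correction, it was 0.32 higher. The number of members with both LMPP arrays above both HSC arrays ran from 49 to 75 over the scalings, while the share of all genes ran from 20.5% to 41.9%.

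Markers of other cells stand beside the LMPP minus HSC result, and none passed the test. The dendritic cell markers, a list added after the values were seen, summed to 4.18 and 4.08 on the HSC arrays and 4.94 and 4.98 on the LMPP arrays, wild type first. Both LMPP arrays were above both HSC arrays for 8 of 9 tested, with a median difference of 1.51, 8 at an unadjusted p under 0.05 and 0 called by limma. The exception was Siglech, whose LMPP minus HSC difference was -0.342 in wild type and 0.145 in Satb1-null. Itgax and Klk1 were not well above background on any HSC or LMPP array and were not among those tested. Whether the LMPP arrays held more dendritic cells was not tested. Of 5 granulocyte markers 4 lay below 0, with a median of -0.38. Of 3 mast cell, basophil and eosinophil markers tested, 2 lay above 0, with a median of 0.54. The other was Cpa3, a mast cell protease, which differed by -5.33 (SE 0.29, limma adjusted p = 0.133). Their part in the difference of the subunit genes was not tested.

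By complex, both LMPP arrays were above both HSC arrays for 32 of 35 genes of complex I, 2 of 4 of complex II, 7 of 8 of complex III, 13 of 17 of complex IV and 17 of 17 of complex V. That order held for 31.3% of all tested genes and for 46.3% of those with a mean level of at least 2. The median differences were 0.44, 0.27, 0.40, 0.43 and 0.47 for complexes I to V, against 0.12 for all genes. In complex I all 7 core subunits, which carry the redox centres, had that order, and so did 25 of the 28 accessory subunits. In complex V the order held for all 5 genes of the F1 part, the catalytic head with its central stalk. It also held for the 3 genes of the c ring, the 5 small membrane subunits and the 4 subunits of the peripheral stalk.

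Ndufa11, a membrane accessory subunit of complex I, was at 1.52 and 1.75 in wild-type and Satb1-null HSC and at 2.49 and 2.47 in LMPP. Both LMPP arrays lay well above the HSC arrays, by 0.85 (SE 0.26), with a limma adjusted p of 0.556. Ndufb10, another accessory subunit, was at 2.93 and 2.76 in HSC and 3.70 and 3.60 in LMPP. Its groups did not overlap either, and the difference was 0.81 (SE 0.25, limma adjusted p = 0.556). Atp5d, the delta subunit of the F1 part of complex V, was at 2.74 and 3.05 in HSC and 3.47 and 3.73 in LMPP. The difference was 0.71 (SE 0.25, limma adjusted p = 0.578). Sdhb was at 1.39 and 1.81 in HSC and 2.35 and 2.32 in LMPP, again without overlap.

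The 3 genes Atp5g1, Atp5g2 and Atp5g3 encode the same mature c-ring protein with different import sequences. Atp5g2 was at 5.88 and 6.10 in HSC, 6.62 and 6.59 in LMPP and 6.03 and 5.88 in CLP, highest on the LMPP arrays. Atp5g1 was at 4.03 and 4.34 in HSC, 4.48 and 4.35 in LMPP and 4.90 and 4.63 in CLP, highest on the CLP arrays. Atp5g3 lay between 3.96 and 4.30. None of these 3 genes passed the test in any contrast.

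Within genotypes, which share no array, the LMPP minus HSC median over the 81 genes was 0.55 in wild type, with 79 genes above 0, and 0.33 in Satb1-null, with 73 above 0. The medians of all genes were 0.20 and 0.03. At least 2-fold differences were seen for 5 members in wild type (14.1% of all genes) and 2 in Satb1-null (15% of all genes), all in complex IV except Ndufa3. Whether the difference itself varies with genotype could not be tested with 1 array a group.

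**Figure D2:**
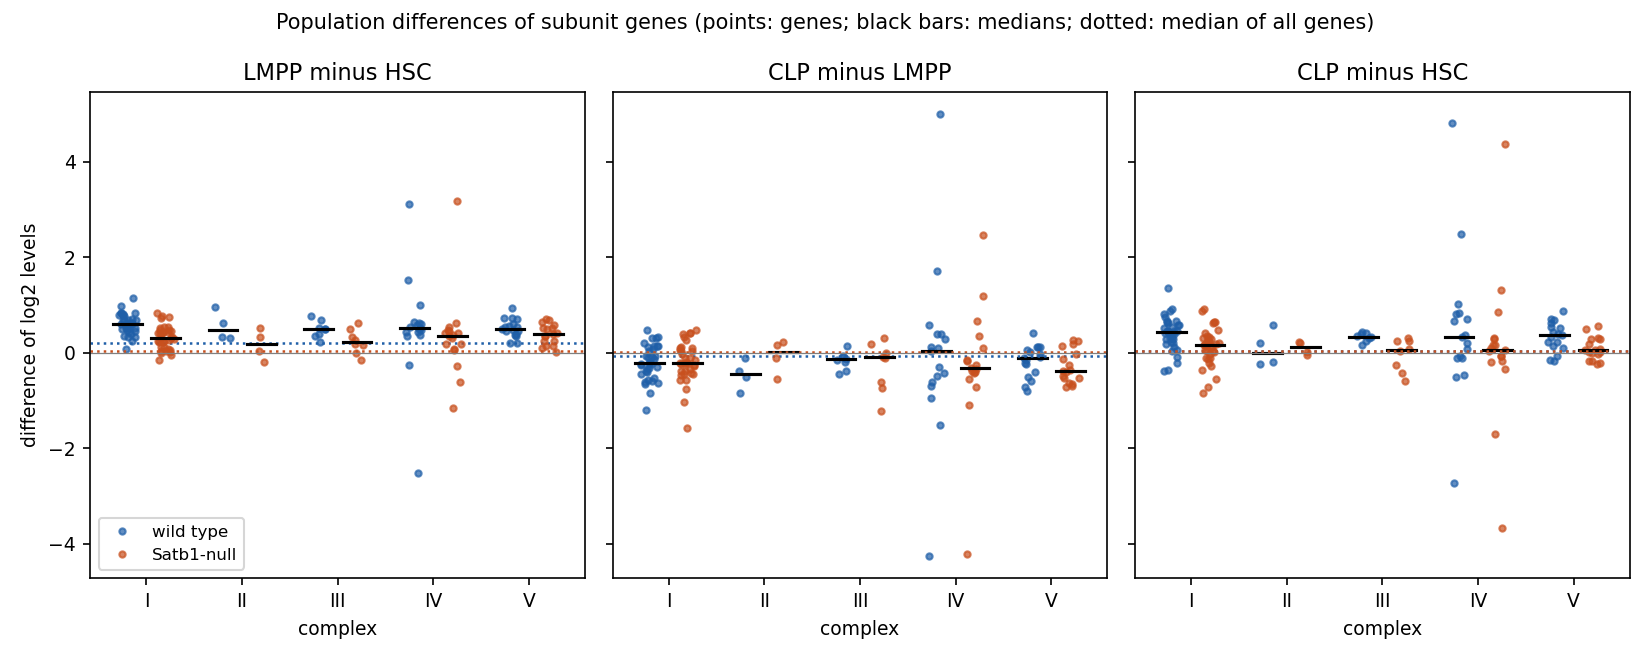
Difference of log2 levels between populations for each subunit gene (points) by complex (horizontal axis), in wild type (blue) and Satb1-null (orange), with medians as black bars and the median of all genes as dotted lines. For LMPP minus HSC the bars of each genotype lie above its own dotted line, and in the CLP panels the outlying points are complex IV isoforms.

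The comparison of CLP with LMPP gave a smaller and opposite median. Over the 81 genes it was -0.18 against -0.06 for all genes, and 59 differences were below 0, but with each array centred on its median the value was 0.02. Without the detection filter the members lay above all genes, at -0.20 against -0.24. Both CLP arrays were below both LMPP arrays for 34 members (31.4% of all genes) and above them for 12 (27.2% of all genes). By limma with Benjamini-Hochberg adjustment 2 members rose (4.81% of all genes were called higher) and 1 fell (3.98% were called lower), all of them tissue isoforms of complex IV. None of the 76 tested genes outside the tissue isoforms passed.

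Ndufa12, an accessory subunit of complex I, was at 4.72 and 4.36 in LMPP and 3.52 and 3.33 in CLP. The CLP arrays lay below all other arrays, and the difference from LMPP was -1.12 (SE 0.27, limma adjusted p = 0.0758). Cox7a2l was at 7.32 and 7.24 in LMPP and 6.38 and 6.53 in CLP, a difference of -0.83 (SE 0.25, limma adjusted p = 0.116). Cox4i1, the ubiquitous form of subunit 4, was at 7.20 and 7.09 in LMPP and 6.59 and 6.55 in CLP. Uqcr10, a small subunit of complex III, was at 4.66 and 4.76 in LMPP and 4.21 and 3.54 in CLP, lower on the Satb1-null array than on the wild-type one.

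CLP against HSC gave a median of 0.21 over the members and 0.02 over all genes. The sign of the member median depended on centring: it was -0.02 with the percentile over probes detected on all arrays and 0.60 with median centring. After quantile normalization the members were no higher than all genes, at 0.0099 against 0.0234. Both CLP arrays were above both HSC arrays for 40 members (30.9% of all genes) and below them for 8 (24.6% of all genes). By limma 1 member rose (5.16% of all genes were called higher) and 1 fell (3.71% were called lower). Ndufs1, the largest core subunit of complex I, was at 1.98 and 2.11 in HSC and 2.64 and 3.01 in CLP, a difference of 0.78 (SE 0.25, limma adjusted p = 0.129). Cox6a1, the ubiquitous form of subunit 6a, was at 5.62 and 5.99 in HSC and 6.64 and 6.83 in CLP, a difference of 0.93 (SE 0.27, limma adjusted p = 0.102).

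Over the 3 populations, the HSC arrays were the lowest pair for 35 of 81 members (13.1% of all genes) and the highest pair for none (6.15% of all genes). The LMPP arrays were the highest pair for 32 members (14.8% of all genes) and the CLP arrays for 12 (21.6% of all genes). The LMPP arrays were the lowest pair for 2 members (6.43% of all genes), Cox6b2 and Ndufa4l2, and the CLP arrays for 8 (18.7% of all genes). Genes with their highest pair in LMPP included Atp5a1, Atp5c1 and Atp5d of the F1 part of complex V, Ndufa11 and Ndufa12, Sdhb, Uqcrh and Cox4i1. Genes with their highest pair in CLP included Ndufs1, Ndufa1, Ndufv3, Atp5g1 and Cox6a1. With the arrays scaled in the other ways, the HSC count ran from 16 (10.7% of all genes) after quantile normalization to 63 (24.8% of all genes) with median centring, and the LMPP count from 20 to 35.

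Cox6a2, Ndufa4l2, Cox4i2 and Cox7a1, 4 tissue isoforms of complex IV, had wider ranges over the 6 arrays than every other tested subunit gene. Of all 8 tissue isoforms, Cox7b2, Cox8b and Cox8c were well above background on none of the arrays. Cox7b2 and Cox8c are known as testis forms, and Cox8b as a form of heart, skeletal muscle and brown fat. Their ubiquitous counterparts were well above background on all arrays: Cox7b lay at 3.27 to 3.94 and Cox8a at 5.08 to 5.92.

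Cox6a2, the heart and skeletal muscle form of subunit 6a, was at -3.15 in wild-type HSC, -0.03 in LMPP and 1.67 in CLP. On the Satb1-null arrays it was not well above background in HSC, at -3.65, and was at -0.48 in LMPP and 0.72 in CLP. The order HSC, LMPP, CLP was the same in both genotypes, and no population overlapped another. The fit takes that dim signal as the level of Satb1-null HSC, so fitted differences from HSC have no exact size. It rose from HSC to CLP, by a fitted 4.59 (SE 0.28, limma adjusted p = 0.0116), and from LMPP to CLP by 1.45 (SE 0.28, limma adjusted p = 0.0442). The fitted LMPP minus HSC difference was 3.14 (SE 0.28, limma adjusted p = 0.25). In Satb1-null the level in CLP was at least 20.7-fold that in HSC, and in wild type it was 28.3-fold. Its counterpart Cox6a1 was also lowest in HSC, with LMPP at 6.25 and 6.17.

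Cox4i2, the form of subunit 4 known from lung and induced by low oxygen, went the other way. It was at -0.86 in wild-type HSC, 0.65 in LMPP and -3.60 in CLP, and at 0.31, 0.85 and -3.35 on the Satb1-null arrays. The CLP arrays were far below the other 4, and HSC and LMPP did not overlap. It fell from LMPP to CLP by 4.23 (SE 0.35, limma adjusted p = 0.0123) and from HSC to CLP by 3.20 (SE 0.35, limma adjusted p = 0.0162). In wild type this was a 19.0-fold and in Satb1-null an 18.4-fold lower level in CLP than in LMPP.

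Ndufa4l2, a paralog of the complex IV subunit Ndufa4 that is known to be induced by low oxygen, was lowest in LMPP. It was at -1.15 in wild-type HSC, not well above background in LMPP at -3.67, and at 1.33 in CLP, and on the Satb1-null arrays it was at -0.33, -1.49 and 0.98. The CLP arrays were the highest and the LMPP arrays the lowest in both genotypes. It rose from LMPP to CLP, by a fitted 3.74 (SE 0.62, limma adjusted p = 0.0326) that takes the dim wild-type LMPP signal as a level, and the level in wild-type CLP was at least 32.0-fold that in LMPP. Ndufa4 itself lay at 5.35 to 6.03, highest in LMPP.

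Leaving out any one of the HSC or LMPP arrays ended all of these calls, with limma adjusted p between 0.0519 and 0.265 and every difference in the same direction. Without any one of those arrays limma called 0 of all tested genes in both CLP contrasts. The LMPP to CLP call of Cox6a2 was also lost without the wild-type CLP array (limma adjusted p = 0.122), with the percentile over probes detected on all arrays (0.0538), after quantile normalization (0.0578), without a floor on dim signals (0.057) and without a genotype term (0.0826).

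Past 2-fold between 2 arrays, CLP differed from LMPP for 5 members in wild type (32.4% of all genes) and 7 in Satb1-null (29.3% of all genes). CLP differed from HSC for 5 members in wild type (33.6% of all genes) and 4 in Satb1-null (29.1% of all genes). Tissue isoforms of complex IV made up most of these, and the others were Ndufa12, Ndufa7, Uqcr10, Ndufa3 and Cox6a1.

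Cox7a1, the muscle form of subunit 7a, was at -0.74 and -0.12 in HSC, 0.27 and -0.73 in LMPP and -1.24 and -1.82 in CLP, wild type first. CLP was the lowest in both genotypes, and HSC and LMPP overlapped. The CLP minus LMPP difference was -1.30 (SE 0.45, limma adjusted p = 0.15). Its counterpart Cox7a2 was at 3.79 and 3.92 in HSC, 4.38 and 4.54 in LMPP and 4.49 and 4.23 in CLP.

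Cox6b2, known as the testis form of subunit 6b, was bright on every array, at 4.02, 3.76 and 4.34 in wild type and 4.24, 3.97 and 4.33 in Satb1-null. It was lowest in LMPP, unlike Cox6b1, which was at 2.59, 2.96 and 2.66 in wild type and 2.10, 2.52 and 2.14 in Satb1-null. Neither passed the test in any contrast. Whether the probe for Cox6b2 also reads other transcripts was not tested.

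**Figure D3:**
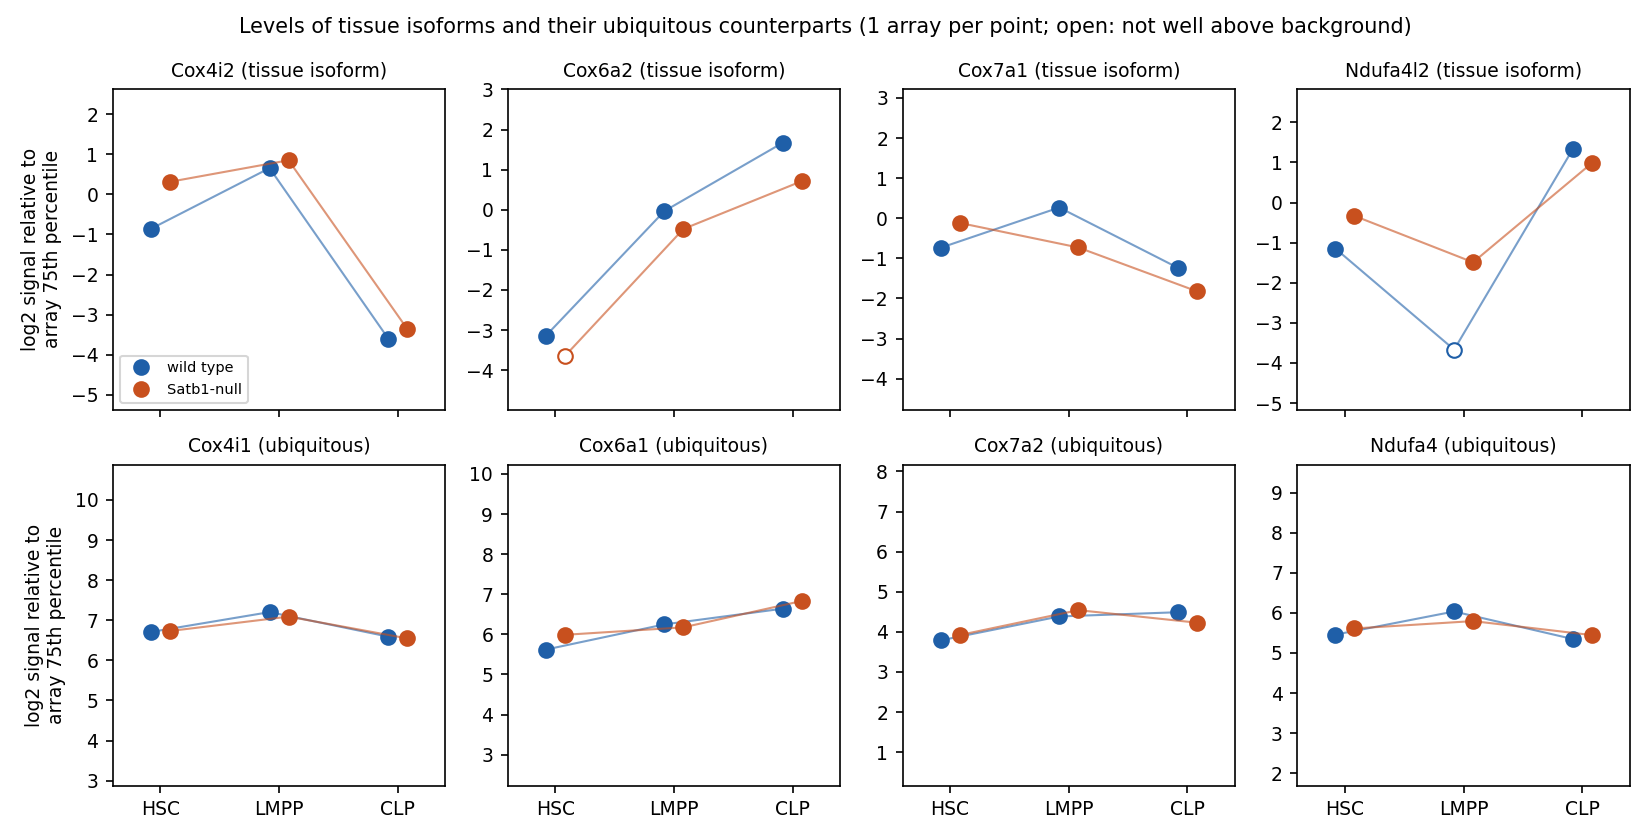
Log2 levels relative to the array's 75th percentile (vertical axis, each panel spanning 8 units) in HSC, LMPP and CLP for 4 tissue isoforms of complex IV (top) and their ubiquitous counterparts (bottom), with 1 array a point, wild type in blue, Satb1-null in orange and open points not well above background. Cox6a2 runs from -3.65 in HSC to 1.67 in CLP, Cox4i2 is lowest in CLP and Ndufa4l2 in LMPP, while the ubiquitous counterparts vary less, as Cox6a1 does between 5.62 and 6.83.

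Markers of other blood cells moved with the CLP arrays, and so stand beside every CLP result. The summed erythroid markers were at 5.82 to 7.14 on the HSC and LMPP arrays and at 9.67 and 9.71 on the CLP arrays, and 5 of 8 tested were called higher in CLP than in LMPP by limma. The mast cell, basophil and eosinophil markers were at 1.99 to 3.53 and at 7.5 and 7.0, with 3 of 3 called. The granulocyte markers were at 8.0 to 8.55 and at 10.11 and 9.87, with 4 of 5 called, and the macrophage markers at -1.56 to 0.76 and at 2.98 and 3.62, with 2 of 4 called. Megakaryocyte markers were at 2.26 to 4.26 and at 5.62 and 4.97, with 0 of 5 called, although 4 had an unadjusted p under 0.05. B-lineage markers were at -1.19 to 1.40 and at 2.79 and 2.84, with 1 of 4 called. Dendritic cell markers were at 4.08 to 4.98 and at 5.25 and 5.46. Of 9 tested, Cd74, H2-Aa and Irf8 were called higher in CLP than in LMPP, 5 lay below 0, and the median was -0.42. Among the mast cell, basophil and eosinophil markers, Prg2, Epx and Mcpt8 were highest in CLP. Cma1 went the other way, at 0.05 and 1.08 in HSC and not well above background in CLP. Cpa3 differed by -0.90 and -0.37 between CLP and HSC, wild type first. Against HSC, limma called higher in CLP 3 of 8, 2 of 3, 2 of 5, 4 of 4, 2 of 5, 2 of 4 and 4 of 9, in the order of lists above. The part of these markers in the CLP results was not tested. Striated muscle markers, set beside Cox6a2 and Cox7a1, were at -2.15 to -0.98, with 1 or 2 of 6 well above background on any array.

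The genotype comparison asked how the subunit genes differ without Satb1. Over the 3 populations the median Satb1-null minus wild type difference of the 81 genes was -0.01 against 0.06 for all genes. No member was called, and limma called 1 of 13014 genes (0.00768%), which was Xist. At an unadjusted p under 0.05 stood 731 genes and 1 member, Cox6a2, which was lower on all 3 Satb1-null arrays, by 0.64 on average (SE 0.23, limma adjusted p = 0.84). By complex the medians were -0.03, 0.14, 0.01, -0.02 and -0.03 for I to V. Higher in all 3 populations were 6 members (15.9% of all genes) and lower in all 3 were 9 (12.9% of all genes).

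The single populations differed in sign. In HSC the member median was 0.15, with 64 of 81 above 0, and that of all genes was 0.13. In LMPP it was -0.08, with 23 above 0, against -0.04, and in CLP -0.15, with 27 above 0, against 0.05. Whether these medians differ between populations could not be tested.

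Only 1 member in each population passed 2-fold. In HSC, where 14.3% of all genes passed 2-fold either way, Cox4i2 was higher on the Satb1-null array, by 1.17. In LMPP (9.57% of all genes) Ndufa4l2 was at least 4.52-fold higher on the Satb1-null array. In CLP (20.2% of all genes) Ndufa7, an accessory subunit of complex I, was at 3.20 in wild type and 2.20 in Satb1-null, a difference of -1.01 with a scanner error of 0.20, which leaves out the spread between samples. Ndufa7 was at 2.74 and 3.03 in HSC and at 3.53 and 3.78 in LMPP, where Satb1-null was the higher. With normexp background correction none of the 3 passed 2-fold.

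The X-linked members Ndufa1, Ndufb11 and Cox7b were read separately, since Xist separated the genotypes. Ndufa1 was at 5.17 and 5.43 in HSC, 5.72 and 5.42 in LMPP and 6.04 and 5.85 in CLP, with wild type given first. Cox7b was at 3.30 and 3.27, 3.94 and 3.69, and 3.50 and 3.42 in the same order. Cox7b was lower on the Satb1-null array in each population, and Ndufa1 in LMPP and CLP. Their fitted differences were -0.07 (SE 0.23) for Ndufa1 and -0.12 (SE 0.21) for Cox7b. Ndufb11 was at 5.15 and 5.62, 5.75 and 5.74, and 5.56 and 5.79, a difference of 0.23 (SE 0.22).

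**Figure D4:**
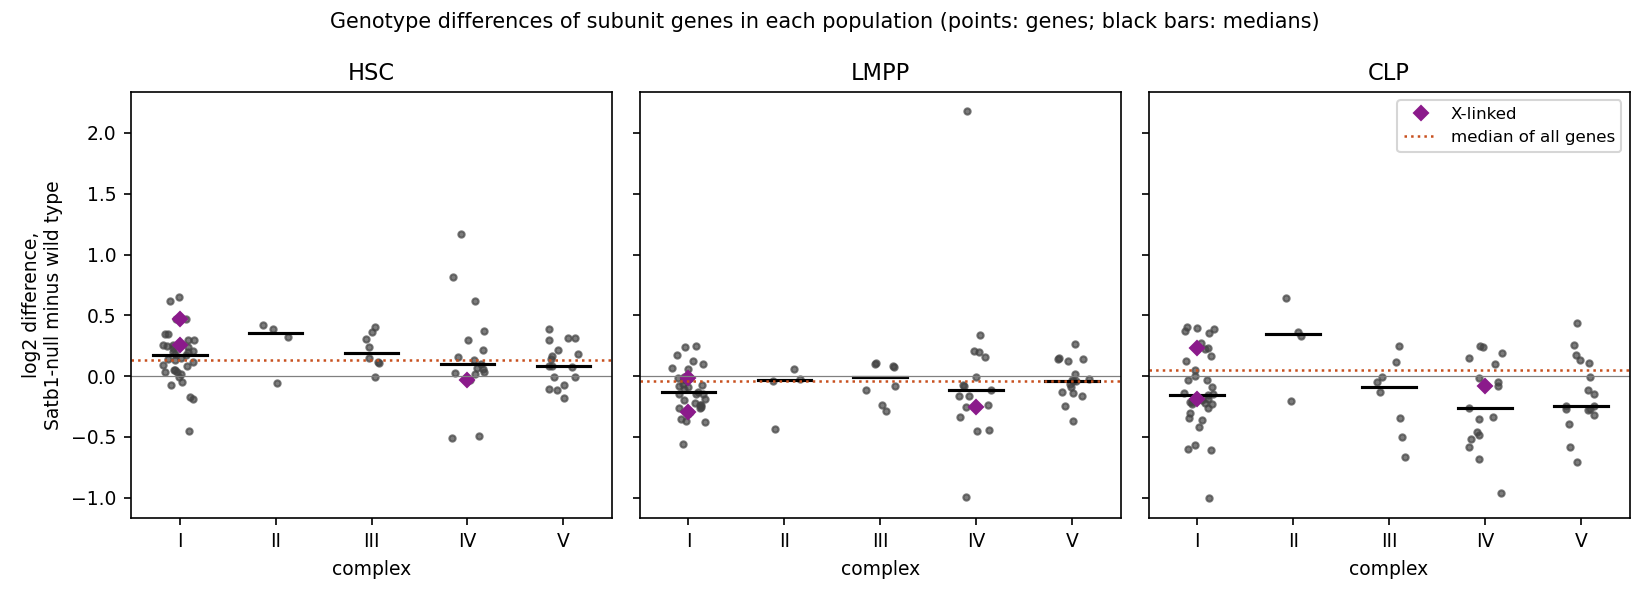
Satb1-null minus wild type differences of log2 levels (vertical axis) for each subunit gene (points) by complex in HSC, LMPP and CLP, with medians as black bars, X-linked genes as diamonds and the median of all genes as dotted lines. The bars lie between -0.26 and 0.35, and the highest point is Ndufa4l2 in LMPP at 2.18.

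For 2 of the 22 members with several probes, the probes gave differences of opposite sign with at least 1 of them past 2-fold. For Ndufb11 in CLP the brighter probe gave a Satb1-null minus wild type difference of 0.23 and the dimmer probe -1.80. In Satb1-null cells the 2 probes of Ndufb11 differed by 0.05 and -1.29 between CLP and LMPP. The 2 probes of Ndufv3 differed by 0.42 and -1.10 in the same comparison. Wide gaps outside that rule included Ndufb5, at 0.46 and -0.90 for CLP minus HSC in wild type, and Sdhb, at -0.37 and -1.57 for CLP minus LMPP in wild type. The brighter probe stands for each gene in the counts.

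Among 4 lists of genes that work with the subunits, all medians for LMPP minus HSC were above 0. The median LMPP minus HSC difference was 0.37 over 14 tested other subunits and electron carriers, 0.36 over 44 assembly factors, 0.22 over 25 genes of the citric acid cycle and pyruvate dehydrogenase, and 0.23 over 22 regulators of mitochondrial gene expression. Both LMPP arrays were above both HSC arrays for 12 of 14, 26 of 44, 12 of 25 and 8 of 22 of them, beside 31.3% of all genes, and none was called. Below 0 were 2, 9, 3 and 6 genes of the lists. In the other contrasts the single call among these lists was Twnk, the mitochondrial DNA helicase. It was at -1.87 and -1.39 in HSC, -2.23 on both LMPP arrays and -2.90 in Satb1-null CLP, and not well above background in wild-type CLP. With the array's floor standing for wild-type CLP, it fell from HSC to CLP by 1.86 (SE 0.37, limma adjusted p = 0.048). Coa7, a complex IV assembly factor, differed by 1.29 between LMPP and HSC (SE 0.27, limma adjusted p = 0.445).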

How the data were processed

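Per the file headers and the submitters' processing notes, the deposited intensity values came from Agilent Feature Extraction (10.10), 1 Cy3 array per group, and the scanner files carry version 10.10.1.1. The deposited gProcessedSignal, a background-subtracted linear intensity, was taken from all 6 arrays. Control spots (3671 per array) and outlier flags were left out, log2 was taken after dividing by each array's 75th percentile, and signals under each array's floor, the lowest signal among probes well above background, were set to it in the fit. The files give no gene names, so 27235 of 55681 probes were named by accession through RefSeq (GRCm38.p6), and the brightest probe stood for a gene. The authors' processed values were the same signals scaled per array.

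Genes detected well above background by 3 or more arrays were fitted with limma (3.58.1, R 4.3.3): genotype plus population on log2 values, 2 residual degrees of freedom, Benjamini-Hochberg adjustment over 13014 genes. This treats the arrays of the 2 genotypes as replicates of a population, and of the 3 populations as replicates of a genotype. The p-values measure only the spread between these arrays, whose number limits the precision, and an interaction could not be tested. The fit was tested on simulated data. A probe not well above background in a comparison of 2 arrays gives a bound, computed against the higher of the floor and its own signal.

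Named genes were members past the threshold in a contrast or past 2-fold between genotypes, the brightest and dimmest of each complex, isoform sets, X-linked members, members whose probes disagreed, and at most 3 called genes of other lists. Other members are given as examples and were chosen after their values were seen. Members and lists were chosen with earlier results of these data known. Normexp, a background correction, was run on the median spot signal, not on the planned mean signal. Other alternatives were centring, quantile normalization, the authors' values, detection filters, the floor, the genotype term, the probe rule and leaving out each array.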

Additional observations from a re-analysis of the deposited data

How the results depend on the processing

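No paired analysis was possible because each group has 1 array and the labels carry no replicate numbers. Genotype is a term of the fit that compares populations, and that fit was also run without it. Of 216 values under processing alternatives that answer a comparison, 156 stayed within their limits and 60 moved. Reversal was not scored for these counts and medians, so a median that changed sign counts as moved or as within its limits. For single members, 203 of 212 kept their side of the threshold, 4 lost it and 5 gained it, and no called value reversed. The cause was not tested for any value that moved.

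The count of all genes called was 1 by genotype and became 0 among genes detected on all 6 arrays and without a floor. For LMPP minus HSC it was 0 and became 1 with median centring and 7 with normexp. For CLP minus LMPP it was 1144 and became 2029 with normexp, and for CLP minus HSC it was 1155 and became 1793 with median centring, 1977 with normexp and 765 without a floor. Members called in CLP minus LMPP were 5 with normexp and 1 among genes detected on all arrays, and in CLP minus HSC 4 and 1. With normexp the gains were Cox7a2l and Ndufa12 in CLP minus LMPP and Cox6a1 and Ndufa4l2 in CLP minus HSC.

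The member median for LMPP minus HSC was 0.61 with median centring, 0.21 after quantile normalization and 0.26 from the authors' values. For CLP minus LMPP it was -0.27 with the percentile over detected probes and 0.0223 with median centring, and for CLP minus HSC -0.0191 and 0.60. Members with both arrays above both numbered 24 with median centring in CLP minus LMPP. In CLP minus HSC they numbered 22 with the percentile over detected probes, 67 with median centring, 23 after quantile normalization and 25 from the authors' values. The shares of all genes under these scalings are not given here, so these counts are not read as a result about the members. Median member levels under normexp were 3.28 and 3.57 for HSC, 3.90 and 3.78 for LMPP and 3.70 and 3.69 for CLP, wild type first.

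Members past 2-fold between genotypes numbered 1 in each population. With normexp they were 0 in each, with median centring 2 in LMPP and 2 in CLP, at 1.5-fold 5, 2 and 9 for HSC, LMPP and CLP, and at 3-fold 0 for HSC and 0 for CLP. For LMPP minus HSC in wild type the count of 5 became 3 with the percentile over detected probes, 18 with median centring, 3 with normexp, 3 from the authors' values, 35 at 1.5-fold and 2 at 3-fold. In Satb1-null the count of 2 became 1 with normexp, 13 at 1.5-fold and 1 at 3-fold. For CLP minus LMPP in wild type it was 17 at 1.5-fold and 3 at 3-fold, and in Satb1-null 4 with normexp, 16 at 1.5-fold and 2 at 3-fold. For CLP minus HSC in wild type it was 28 with median centring, 3 with normexp, 21 at 1.5-fold and 3 at 3-fold, and in Satb1-null 7 with median centring and 13 at 1.5-fold.

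Leaving out 1 array at a time, the count of genes called ran from 0 to 1 by genotype, stayed at 0 for LMPP minus HSC, and ran from 0 to 1630 for CLP minus LMPP and from 0 to 1559 for CLP minus HSC. Members called ran from 0 to 3 in both CLP contrasts and stayed at 0 in the others. The member median ran from -0.09 to 0.02 by genotype, from 0.32 to 0.52 for LMPP minus HSC, from -0.30 to -0.12 for CLP minus LMPP and from 0.11 to 0.33 for CLP minus HSC. Dim signal limits Cox6a2 in Satb1-null HSC and Ndufa4l2 in wild-type LMPP, which give bounds.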
